A study of Mus musculus with 2 samples.

Results

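The 733 regions described here are the H3K27me3-marked stretches of chondrocyte chromatin that had no gene within 5000 bp (intergenic regions), out of 2017 regions called by ChIP-seq. A region was taken as intergenic when its entry in the region list named no gene, so the choice rests on the position of genes and not on the strength of the mark. The intergenic regions were 36.3% of the list (95% interval 34.2 to 38.5) and the other 1284 regions named at least 1 gene, which 841 of them overlapped and 443 only neighboured. H3K27me3, trimethylated lysine 27 of histone H3, is placed by Polycomb repressive complex 2 (PRC2) and marks chromatin in which genes are kept silent. It forms broad domains over genes for developmental transcription factors in cells that do not use them, such as Hox, Pax and Nkx genes, and these domains can reach far beyond the gene into the surrounding gene-poor DNA. In cartilage, loss of the PRC2 component Eed was the subject of the study from which these data come.

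The samples were 1 ChIP library and 1 input library. Both came from chondrocytes of the ribs of 11 wild-type mice of CD1 background at postnatal day 2.5, pooled and kept in culture overnight in medium with 5% fetal calf serum on 2 dishes of 10 cm. The ChIP library was made with an antibody to H3K27me3, and the input library, 2% of the chromatin without the antibody step, gives the background. There were no replicates and no mutant or otherwise treated cells, so no difference given below could be tested against the spread between animals or cultures, and no p-value is given. Regions of 1 library share their source and are not replicates. Intervals are 95% intervals that cover counting error only, and they take regions as independent, which neighbouring regions need not be. Of defining marker genes, the list named 1 of 24 for chondrocytes (Ihh), 1 of 5 for osteoblasts (Col1a1), 0 of 6 for fibroblasts and perichondrium, 0 of 7 for blood and endothelium, 3 of 7 for skeletal muscle (Pax7, Pax3 and Acta1) and 4 of 6 for neural cells (Neurog1, Olig2, Pax6 and Tubb3). H3K27me3 is a mark of silent genes, and no transcript was measured in these libraries, so these counts show which markers lay near the mark and not which cells were present.

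The intergenic regions were short and mostly modest in height, and they were spread over the same range as the regions with a gene. They covered 921 kb in all, 34.7% of the length of the list, and held 50876 ChIP tags and 7143 input tags (sequenced reads placed in a region). Their lengths ran from 347 to 9105 bp, with a median of 1005 bp (928 to 1055), against 1096 bp (1060 to 1135) for the regions with a gene. The median region without a gene was thus slightly shorter, and the 95% intervals of the medians did not overlap. The median count of ChIP tags was 53 (50 to 56) in the intergenic regions and 59.5 (56 to 62) in the others, and the median input count was 6 and 7. Per kb of region, the median ChIP density was 54.5 tags in both classes. The profile height, the highest point of the smoothed ChIP signal in a region, had medians of 8.69 and 8.67 in a list whose values begin just above 8. The tag enrichment, the ratio of ChIP to input tags with a lower limit on the input, had medians of 5.75 (5.68 to 5.81) and 5.67 (5.62 to 5.72). The intervals of the tag medians met at 56. Among regions with a height of at least 9 the intervals overlapped for both measures, with 1234 bp (1120 to 1367) against 1272 bp (1155 to 1365) and 70 tags (63 to 80) against 71 (67 to 76). At a height of at least 10 the intervals for length overlapped too, with 1238 bp (1093 to 1768) against 1412 bp (1228 to 1664). With regions within 3000 bp merged, the lengths were 954 bp (867 to 1021) against 1281 bp (1171 to 1391). The tags were then 51 (47 to 54) against 68 (63 to 71), and neither pair of intervals overlapped. A merged stretch with any gene counted as a region with a gene, and its length includes the gaps. This rule took 57 intergenic regions into that class, so the merged classes are not those of the unmerged list. The differences in length and tags thus depended on the regions kept and on merging. In the unmerged list, ChIP density, height and enrichment were close in both classes. The lower limit set the input in 574 intergenic regions (78.3%) and 978 of the others (76.2%). There the enrichment follows from the ChIP density and is no separate measure.

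Most shares past a limit were close to those of the whole list. A profile height of at least 10 was reached by 100 intergenic regions (13.6%), against 13.1% of all listed regions. A length of at least 2000 bp was reached by 110 (15.01%, against 16.5% of all), and 43 had no input tag (5.87%, against 5.45%). Of the 100 regions that the caller ranked highest, 40 were intergenic, which is 5.46% of the intergenic regions against 4.96% of all regions, and of the 10 ranked highest 6 were (0.819% against 0.496%), all of them with a high input as described below. The ratio of ChIP to input tags had an interval above the ratio of the whole list in 50 intergenic regions (6.82%, against 8.08%) and below it in 35 (4.77%, against 4.96%). Each of these shares was within 2 percentage points of that of the whole list, which includes the intergenic regions. For the smallest shares such a band says little. Of the regions with a gene, 4 (0.312%) were among the 10 ranked highest. Just inside the limit of the gene assignment, 11 regions, those of Onecut3, Neurog1, Foxl2 and Tbx4 among them, had their gene at least 4814 bp away, with 26 to 116 ChIP tags and a pooled ratio of 8.90 (7.10 to 11.3). The distance from an intergenic region to its nearest gene is not part of the list, so the matching values just outside that limit are not given.

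The pooled ratio of ChIP to input tags was 7.12 (6.95 to 7.30) over the intergenic regions and 7.67 (7.53 to 7.82) over the regions with a gene, and the order of these values turned when a single run of regions was left out. This run lay on chromosome 2 beside Cwc22, which encodes a splicing factor, at 77785512 to 77864873 (mm9), and held 13 intergenic regions and 1 region that names Cwc22. The 13 regions carried 3714 ChIP tags and 1438 input tags, with a ratio of 2.58 (2.43 to 2.75). Their input density was 3.65 times the lower limit of 9.21 input tags per kb that the enrichment uses, and their profile heights were 12.02 to 19.7. The longest of them, at 77842186 to 77849686, was ranked highest of the whole list with 723 ChIP tags and 276 input tags. In that run both libraries were high, and the part of the high input in the height of these regions was not tested. Without the run, the pooled ratio was 8.27 (8.04 to 8.50) over the other 720 intergenic regions and 7.73 (7.58 to 7.88) over the regions with a gene.

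**Figure D1:**
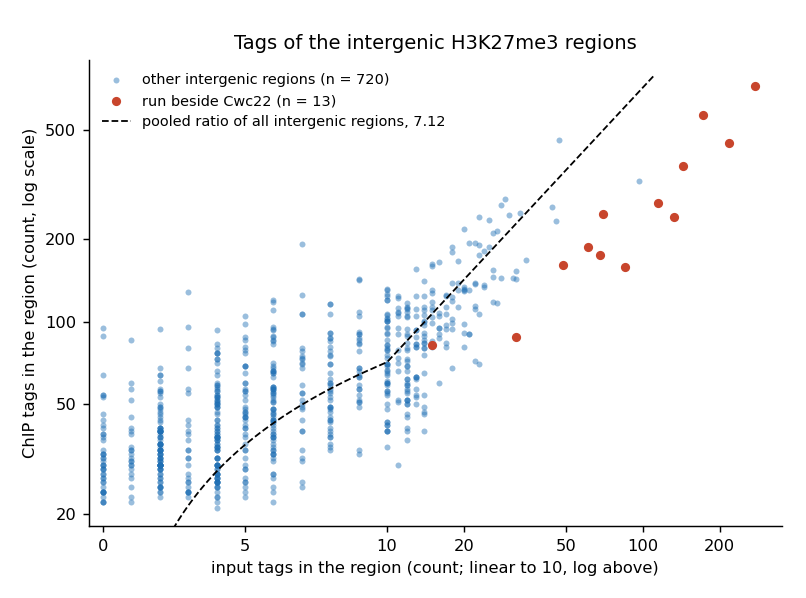
ChIP tags (log axis) against input tags (axis linear up to 10 and log above) of each of the 733 intergenic regions, with 1 point per region and the dashed line at their pooled ratio of 7.12. The 13 regions of the run beside Cwc22 carry 15 to 276 input tags and all lie below the line, while the other 720 regions lie on both sides of it.

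The same run held part of 3 of the 4 lists of extreme values. Input density reached 2 times the lower limit in 16 intergenic regions (2.18%, against 1.59% of all regions), and 12 of the 16 lay in this run. For the other 4, the nearest regions with a gene named Neurog1, Nkx2-5, Cog6 (275 kb away) and Speer4a. Their pooled ratio was 3.26 (2.68 to 3.98). The one near Speer4a, at 26332249 to 26337118 on chromosome 5, was ranked 10 in the list with 326 ChIP tags and 97 input tags. Of the 10 intergenic regions with the highest profile, 9 were in the run beside Cwc22, as were 5 of the 10 with the most ChIP tags and 4 of the 10 longest. None of the 10 regions with the highest lower bound of the ratio was in it.

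Of the 10 longest intergenic regions, 6 lay outside that run, and the nearest regions with a gene named Fcgr1, Speer4a, Hmx1, Tlx1, Nkx2-5 and Mir9-3. The longest region, 9105 bp at 96137268 to 96146373 on chromosome 3 between Fcgr1 and Hfe2, had 461 tags in the ChIP and 47 in the input library (ratio 9.81, 7.26 to 13.5). A region of 6095 bp at 35804722 to 35810817 on chromosome 5, for which the nearest region with a gene, 70.6 kb away, names the homeobox gene Hmx1, had 280 ChIP tags and 29 input tags. A region of 4789 bp lay 832 bp from a region that names the homeobox gene Tlx1 on chromosome 19, with 248 ChIP tags and 33 input tags. These 3 regions had profile heights of 10.2, 8.53 and 8.61. A region of 4692 bp on chromosome 17, 19.6 kb from a region that names the heart transcription factor gene Nkx2-5, had 266 ChIP tags and 28 input tags. A region of 4670 bp, 18.8 kb from a region that names Mir9-3, a gene for the neural microRNA miR-9, had 235 ChIP tags and 25 input tags. Their ratios were 9.50 and 9.40.

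The 10 regions with the highest lower bound of the ratio had at most 7 input tags each. A region of 1756 bp at 25740100 to 25741856 on chromosome 7 had 95 ChIP tags and no input tag, for which the lower bound of the ratio was 25.3. A region of 1762 bp at 172558145 to 172559907 on chromosome 2 had 89 ChIP tags and no input tag (lower bound 23.6). The nearest regions with a gene were 176 kb and 172 kb away, and they name Pou2f2, a POU-domain factor of B cells, and Tcfap2c, the AP-2γ gene. On chromosome 13, a region of 3903 bp at 95481370 to 95485273 had 192 ChIP and 7 input tags (ratio 27.4, 13.1 to 69.1) and lay 161 kb from a region that names Otp, a homeobox gene of the hypothalamus. A region 125 kb from Barhl1, a homeobox gene of the inner ear and brain, had 128 ChIP tags and 3 input tags and a height of 12.2. These 4 of the 10 regions with the highest lower bound lay over 100 kb from any region that names a gene. Others of the 10 lay closer to such a region, at 33.8 kb (Pax2), 6.02 kb (Onecut3), 69.1 kb (Nkx2-3) and 0.342 kb (Cdh22). The rest lay 532 kb (Chn2) and 254 kb (Chat and Slc18a3) away. The 10 were picked for the lower bound, so their ratios describe them and are no test.

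Many intergenic regions had another region close by. The nearest other region of either kind lay within 10 kb of 440 of them (60.03%, 56.4 to 63.6), so these regions stood in runs, and 59.7% of the regions with a gene did so too. The share depended on the gap and on the regions kept, and was 40.7% with a gap of 3000 bp, 37.4% with regions within 3000 bp merged and 37% at a height of at least 10. The median distance to the nearest region of either kind was 5302 bp (4268 to 6628). Distances to the nearest region that names a gene were longer, with a median of 70.6 kb, quartiles of 15.8 and 459 kb, and a largest value of 43310 kb (the only intergenic region of the X chromosome). Within 5 kb of such a region lay 76 intergenic regions, within 100 kb 408 (55.7%, 52.0 to 59.3), and beyond 1 Mb 135. Intergenic regions thus ranged from those close to a marked gene to the 96 that had no region of either kind within 250 kb. A gene is called nearest here when the nearest region that names a gene names it, so unlisted genes can lie closer. In the gene order of RefSeq (GRCm38.p6), a median of 20 coding genes lay between the marked genes on either side, over the 707 intergenic regions that could be placed.

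**Figure D2:**
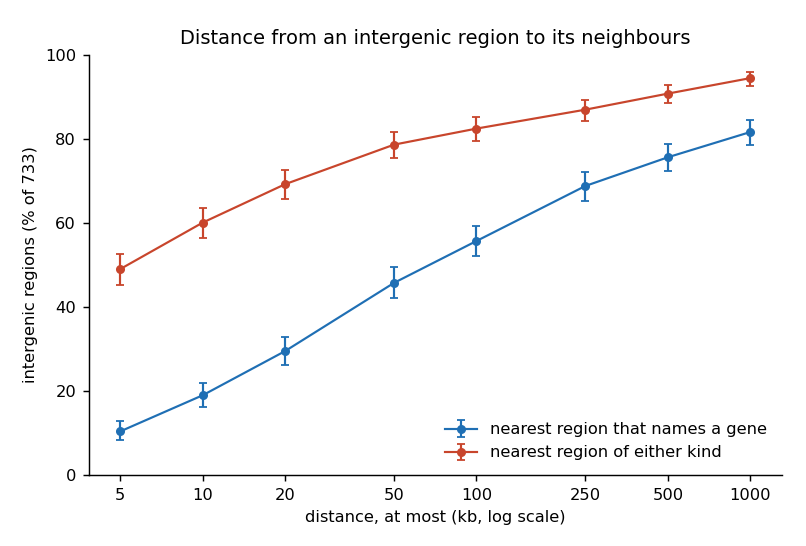
Share of the 733 intergenic regions that have a neighbouring region within a distance, with 95% intervals; the x axis is in kb on a log scale. The curve for neighbours of either kind starts at 49.0% within 5 kb and reaches 94.4% within 1 Mb, above the curve for regions that name a gene, which goes from 10.4% to 81.6%.

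Length and tag number went with these positions. The 440 intergenic regions in runs had a median length of 1212 bp (1153 to 1311) and a median of 66 ChIP tags (60 to 71), and the 293 that stood alone had 735 bp (672 to 818) and 40 ChIP tags (38 to 42). The 76 regions within 5 kb of a region that names a gene had the longest median, 1467 bp (1157 to 1754), and from there the medians were 1179 bp at 5 to 20 kb, 1010 bp at 20 to 100 kb, 818 bp at 100 to 500 kb and 870 bp beyond 500 kb. Regions in runs were thus longer than regions alone, with intervals of the medians that did not overlap, and the lengths at the largest distances did not differ beyond their intervals. The 96 intergenic regions with no other region within 250 kb were short, at a median of 660 bp and 37.5 ChIP tags, with a pooled ratio of 8.39 (7.64 to 9.24). With regions up to 3000 bp apart merged, 527 intergenic regions remained, made up of 435 single regions and 92 merged ones, and 57 of the 733 joined a region that names a gene.

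Of the runs joined by gaps of at most 10 kb, 80 held intergenic regions alone (248 regions) and 96 held both kinds (192 intergenic regions). The run beside Cwc22 had the most, 13. It was followed by a run of 12 on chromosome 9, by a run of 11 near Nkx2-3 and 2 runs of 10 near Pax2 on chromosome 19, by a run of 8 on chromosome 9, by the HoxA run with 8 and by a run of 7 near Dmbx1. In the run of 12 on chromosome 9 (60841711 to 60887374), the ratio was 7.24 (5.95 to 8.88), from 833 ChIP and 115 input tags. The ratios of the 2 runs near Pax2 were 8.56 (6.92 to 10.7) and 9.05 (7.15 to 11.6).

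The largest collection of intergenic regions was on chromosome 9, with no region that names a gene among them. Between the regions that name Hcn4, a pacemaker channel gene, and Lbxcor1, a transcriptional corepressor gene of the spinal cord, lay 46 intergenic regions at 60796175 to 61700566, with a ratio of 7.57 (6.87 to 8.37) from 3476 ChIP and 459 input tags. The nearest region with a gene was 1284 to 2153 kb away from them. With gaps of up to 50 kb, 32 of them formed 1 stretch of 277 kb (60796175 to 61073430), of which the regions covered 17.2%. Within it the ChIP count per region went from 24 to 190, with a median of 83.5, and the profile height from 8.04 to 12.3. The longest region of the stretch, 3645 bp at 60919481 to 60923126, had 190 ChIP tags and 23 input tags, and the next by ChIP tags, 3366 bp at 60962339 to 60965705, had 187 and 25. The input density of the 46 regions was 0.758 times the lower limit, well under the 3.65 times of the run beside Cwc22. The order of genes in RefSeq (GRCm38.p6) places 31 protein-coding genes between Hcn4 and Skor1, the present name of Lbxcor1, and the list attached none of them to a region.

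**Figure D3:**
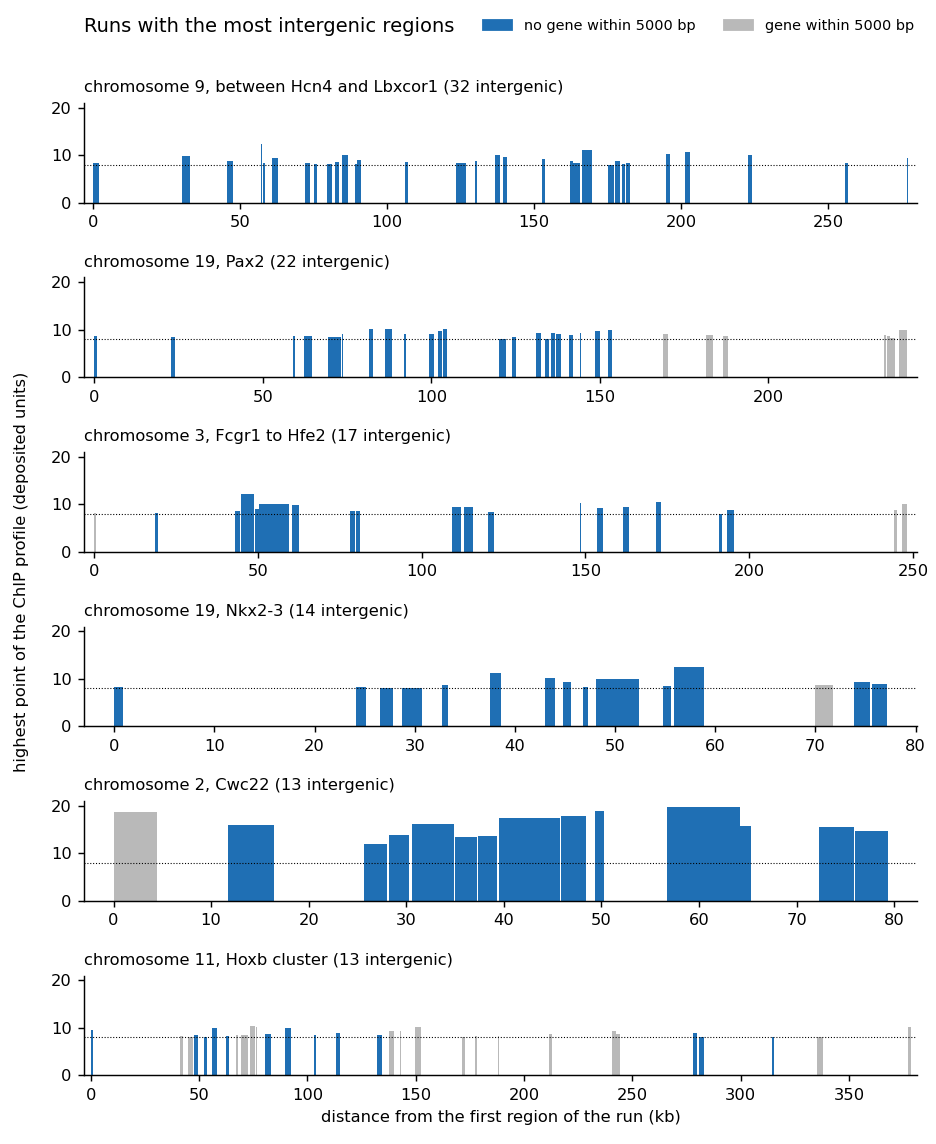
Regions of the 6 runs with the most intergenic regions when gaps of up to 50 kb are allowed, each bar as wide as its region, at its distance from the start of the run (kb) and as high as its ChIP profile; blue bars have no gene within 5000 bp and grey bars have one, and the dotted line is at 8, the lower end of the list. The chromosome 9 stretch holds 32 blue bars and no grey bar, and the run beside Cwc22 stands out by its height, 12.02 to 19.7 for its blue bars against at most 12.5 in the other 5.

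Chromosome 19 held a pair of neighbouring collections. Between Cnnm1 and Nkx2-3, a homeobox gene needed for spleen and gut vessels, lay 12 intergenic regions at 43621688 to 43680537, with Got1 as the only coding gene between in the RefSeq order. They covered 29.1% of that stretch and had 989 ChIP and 95 input tags (ratio 10.4, 8.43 to 12.99). The 2 with the most ChIP tags, 240 and 188 against 23 and 18 input tags, lay 17.6 and 11.1 kb from the region that names Nkx2-3. A region with fewer tags lay between them. The next window, from Nkx2-3 to Pax2, held 24, and 22 of these were nearest to Pax2, a paired-box gene of kidney and inner ear. Those 22 lay 15.4 to 168 kb from the regions that name Pax2, comprised both runs of 10 and 2 regions to their left, and had 26 to 194 ChIP tags each, 1618 in all, against 191 input tags. Of all 123 regions of chromosome 19, 61 were intergenic.

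Around the Hox clusters, intergenic regions lay mostly beyond the outer genes. Genes stand close together inside these clusters, and a region within 5000 bp of any of them is not intergenic by the rule. Of 25 Hox genes that the list names, 6 were the nearest for 31 intergenic regions: Hoxa13, Hoxb1, Hoxb13, Hoxc9, Hoxc13 and Hoxd1. Hox genes encode the homeodomain factors that set position along the body axis, and in each cluster the gene numbers run from one end to the other, so 1 and 13 are at the ends. Outside Hoxc13, 14 regions reached 220 kb away, with 30 to 124 ChIP tags, a pooled ratio of 9.54 (7.81 to 11.8), and 10 of the 14 within 100 kb. Between Hoxa13 and Evx1, a homeobox gene that flanks the HoxA cluster, 6 regions had 30 to 113 ChIP tags, and no coding gene lies between in the RefSeq order. Outside Hoxd1, 7 regions stood 162 to 346 kb away with 25 to 78 ChIP tags. Between Hoxb13 and Mir196a-1, 5 regions had a median length of 2217 bp and 37 to 156 ChIP tags. The regions outside Hoxd1 had the lowest ChIP counts of these groups, at lengths of 419 to 1464 bp, and were the farthest from their gene. Those near Hoxb13 were the longest. Counts per region also go with length, and tags per kb were not compared between these groups.

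Genes for a microRNA gave another group. miR-9 is a microRNA of neural progenitors, and the list named 2 of its genes, Mir9-1 and Mir9-3, which were the nearest for 13 intergenic regions (4 and 9). Both genes give the same mature microRNAs in RefSeq (GRCm38.p6), shown here because both marked loci make the same product, with the seed, bases 2 to 8, in capitals:
mmu-miR-9-5p: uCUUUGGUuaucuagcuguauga
mmu-miR-9-3p: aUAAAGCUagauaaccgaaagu
Between Mir9-3 and Rhcg on chromosome 7, with no coding gene between in the RefSeq order, 8 regions at 86660604 to 86733006 had 72, 235, 153, 40, 40, 62, 215 and 33 ChIP tags from left to right, against 12, 25, 32, 2, 7, 8, 27 and 2 input tags. The counts were highest in 3 long regions of 4670, 3203 and 4215 bp, and low in the short ones between and beyond them. The 4 regions near Mir9-1 on chromosome 3 lay 3200 to 11991 bp from its region and had 33, 144, 35 and 49 ChIP tags. The pooled ratio of the 13 was 7.87 (6.58 to 9.49).

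Other windows also had a marked gene at each end and no coding gene between in the RefSeq order. There were 30 such windows, with 80 of the 707 intergenic regions that could be placed by RefSeq order (11.3%). Between Dmbx1, a homeobox gene of the midbrain, and Faah, a fatty acid amide hydrolase gene, 7 regions at 115622566 to 115651152 on chromosome 4 had 104, 127, 65, 85, 32, 193 and 38 ChIP tags. Between Six3 and Six2, homeobox genes of the eye and the kidney, 7 regions on chromosome 17 had 38 to 99 ChIP tags, with 1 of them 1.92 kb from Six3 and the other 6 on the side of Six2. Between Irf8, a myeloid factor gene, and Foxf1a, a forkhead gene of lung and gut mesenchyme, 7 regions on chromosome 8 had 165, 68, 80, 35, 22, 110 and 120 ChIP tags. Of these, 4 stood 146 to 159 kb from Irf8, and 2 stood within 5 kb of Foxf1a. The ChIP counts between the ends were uneven in all 3 windows, with high counts next to low ones and no steady change from one gene to the other. Counts per region also go with length, and tags per kb were not compared along these windows.

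Genes for developmental factors on chromosome 5 were nearest to several groups. Tbx5, a T-box gene of forelimb and heart, was the nearest for 8 intergenic regions with 27 to 130 ChIP tags and a ratio of 9.37 (7.25 to 12.3). Lhx5, a LIM homeobox gene of the forebrain, was the nearest for 9 with 23 to 110 ChIP tags and a ratio of 10.4 (7.51 to 14.7). Uncx, a homeobox gene of the somite with a role in the vertebral column and the ribs, was the nearest for 9 with 51 to 143 ChIP tags, 6.06 to 125 kb away. Msx1, a homeobox gene of the limb and the skull, was the nearest for 10, and the list gave the same region to its antisense gene Msx1as. Of those 10, 8 lay 4.84 to 155 kb away and 2 lay 3923 and 3925 kb away. Chromosome 5 had the most intergenic regions of all, 91 of 184.

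Signalling genes were nearest to 20 of the 733 intergenic regions (2.73%), and 62 of the 1284 regions with a gene named one (4.83%). Counted by gene, they were 13 of the 294 nearest genes (4.42%, 2.38 to 7.44) and 38 of the 922 genes of the list (4.12%). Wnt ligand genes were the nearest for 6 (Wnt10a for 1, Wnt3a for 3 and Wnt7a for 2), 3 of 8 Wnt genes in the list, with 30 to 79 ChIP tags and a ratio of 12.1 (8.20 to 18.7). Col1a1, which encodes a collagen chain of bone and skin, was the nearest for 2 regions, 29.4 and 41.5 kb away, with 80 and 64 ChIP tags against 3 and 2 input tags. Ihh, a ligand of growth plate chondrocytes, was the nearest for none. Sox genes were the nearest for 3 regions, Sox14 for 1 at 6.30 kb and Sox21 for 2 at 10.7 and 3214 kb.

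**Figure D4:**
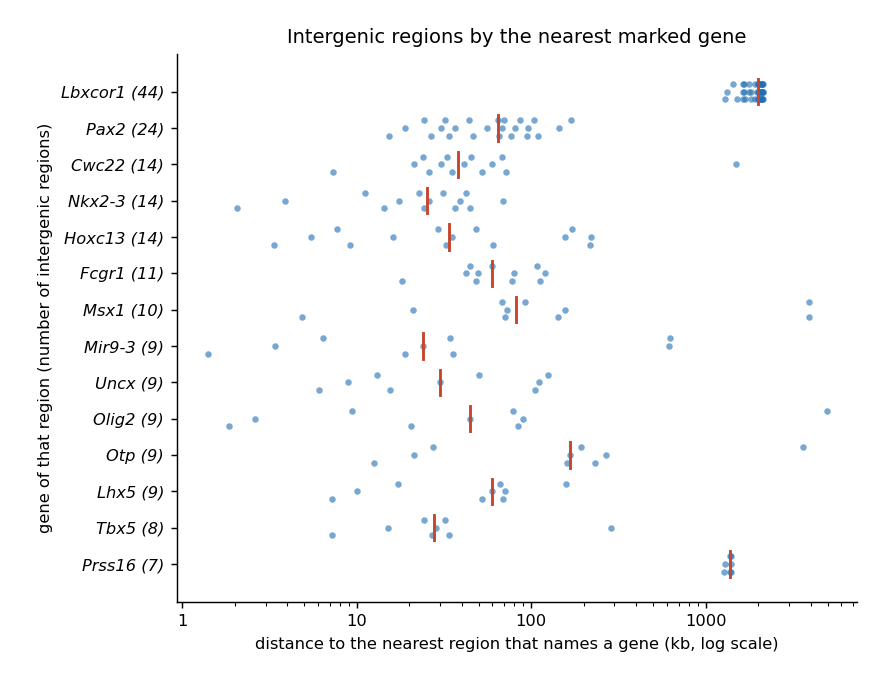
Distance in kb, on a log scale, from each intergenic region to the nearest region that names a gene, for the genes with the most intergenic regions (their number in brackets; Msx1as, which shares all its points with Msx1, is left out); red ticks are medians. The 44 points of Lbxcor1 and the 7 of Prss16 lie beyond 1 Mb, while most points of Nkx2-3, Mir9-3, Uncx and Tbx5 lie within 100 kb.

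Over all 733, the nearest region named a gene with a transcription factor symbol for 325 (44.3%, 40.7 to 48.0). Among the regions with a gene themselves, 28.7% (369 of 1284) named such a gene, and among the 922 genes of the list, 19.3% (178) did. Counted by gene instead of by region, 94 of the 294 genes that these nearest regions name had such a symbol (32.0%, 26.7 to 37.6). The share was 54.4% (49.4 to 59.3) for the 408 intergenic regions within 100 kb of a region with a gene and 31.7% (26.7 to 37.1) for the 325 farther away. For signalling symbols the shares were 2.73% over the intergenic regions and 4.83% over the regions with a gene. By gene they were 4.42% of the nearest genes and 4.12% of the genes of the list. These shares describe neighbourhood on the chromosome, since many intergenic regions share a nearest gene and are not independent, and nothing in the list says which gene a region acts on. Symbols were sorted by fixed patterns of letters, so factor genes with other symbols, Otp and Dmbx1 among them, were not counted.

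The families behind this share differed in how many of their genes took part. Fox genes were the nearest for 29 intergenic regions, through 10 of 13 genes in the list, with a ratio of 9.27 (7.95 to 10.9). Pax genes were the nearest for 32, through 4 of 8, and 24 of the 32 belonged to Pax2. Nkx genes were the nearest for 23, through 4 of 7, and 14 of these belonged to Nkx2-3. The 3 Gata genes of the list, zinc finger factors of blood, heart and gut, were the nearest for 11 in all. Of these, 7 belonged to Gata4 on chromosome 14, with 48 to 125 ChIP tags. They lay 0.125 to 337 kb away, 5 of them within 100 kb. Lhx genes were the nearest for 13 through 3 of 8 genes, and Tbx genes for 11 through 2 of 8. The Fox regions were thus spread over many genes, and the Pax and Nkx regions were mostly those of a single gene each. The pooled ratios of the Gata group, 7.73 (6.37 to 9.47), and of the Wnt group given above had intervals that overlapped.

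Not every large collection lay by a factor gene. Between Fcgr1, an Fc receptor gene of myeloid cells, and Hfe2, a hemojuvelin gene of iron metabolism, 17 intergenic regions at 96105574 to 96282357 on chromosome 3 had 33 to 461 ChIP tags, 2015 in all, against 233 input tags (ratio 8.65, 7.55 to 9.95). They covered 21.1% of that stretch, with only BC107364 between in the RefSeq order, and 4 of them had a height of at least 10. On chromosome 13, 7 regions stood 1273 to 1395 kb from a region that names Prss16, a protease gene of the thymus. The last 2 of these 7, at 23497973 to 23501533 and 23501664 to 23504854, had 262 and 232 ChIP tags, 44 and 46 input tags and heights of 14.4 each. Their input was above the lower limit, and the ratio of the 7 was 6.10 (5.12 to 7.31). On chromosome 5, 1 of 3 intergenic regions of a run lay 20690 kb from Gbx1, the nearest gene of the list on that chromosome, and reached a height of 14.4 as well, with 79 ChIP tags and 10 input tags.

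By chromosome, the share of regions without a gene went from 21.7% (15 of 69) on chromosome 10 to 52.1% (75 of 144) on chromosome 9. The intervals of chromosomes 5, 9, 13 and 19 lay above the share of the whole list, and those of chromosomes 2, 10, 11 and 15 below it. Of the 75 on chromosome 9, 46 lay between Hcn4 and Lbxcor1. The X chromosome had 1 intergenic region, with 28 ChIP tags and 2 input tags, among 2 in all.

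**Figure D5:**
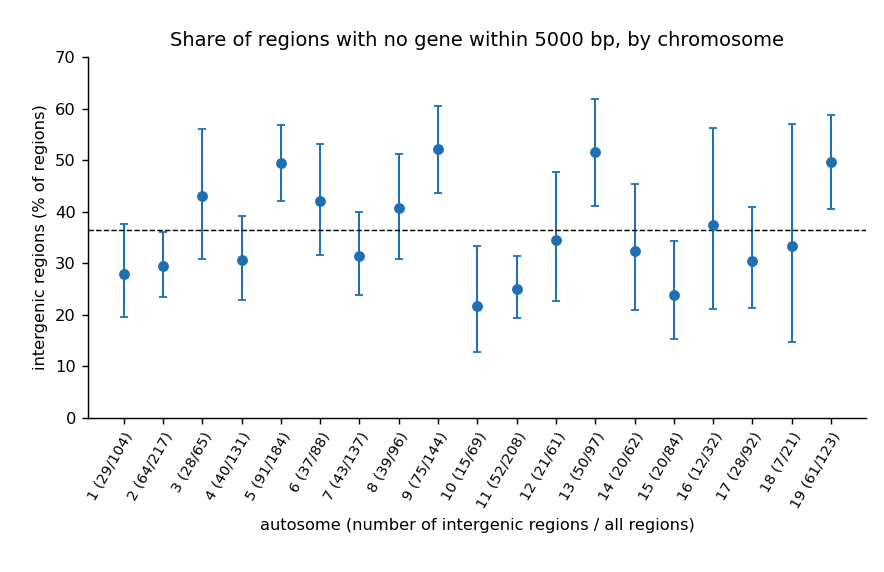
Share of the regions on each autosome that have no gene within 5000 bp, with 95% intervals and the counts beside each chromosome's number; the dashed line is the 36.3% of the whole list. Chromosomes 5, 9, 13 and 19 lie above the line with their whole interval, and chromosomes 2, 10, 11 and 15 below it.

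Promoters were looked up in RefSeq (GRCm38.p6, 250 bases before to 50 after the start of the gene). The genes were those named by the region with a gene nearest to an intergenic region. CpG-rich promoters are typical places of PRC2 binding in mammals. A promoter was found for 9 of the 15 genes that were nearest for the most intergenic regions. They held 1 to 46 CpG dinucleotides with a median of 25, and 8 of the 9 held at least 10, against 45.8% of 27025 genes, whose median was 8. Where 1 of the 9 genes had several promoters, the highest count was taken. These genes were all named by the H3K27me3 list and were not compared with its other genes. The counts therefore describe these promoters and not the intergenic regions. The lowest and highest are shown to give both ends, with each CpG in capitals. The promoter of Fcgr1 (chr3:96293920-96294219, minus strand, 1 CpG) and that of Skor1, listed as Lbxcor1 (chr9:63148912-63149211, minus strand, 46 CpG), are numbered in GRCm38.p6 and not in the mm9 positions of the regions:
Fcgr1: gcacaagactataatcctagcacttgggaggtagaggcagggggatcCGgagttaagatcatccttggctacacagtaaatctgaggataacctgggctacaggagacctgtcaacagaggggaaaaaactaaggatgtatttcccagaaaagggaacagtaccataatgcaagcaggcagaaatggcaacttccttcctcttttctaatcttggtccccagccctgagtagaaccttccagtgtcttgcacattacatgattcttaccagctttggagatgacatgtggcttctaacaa
Skor1: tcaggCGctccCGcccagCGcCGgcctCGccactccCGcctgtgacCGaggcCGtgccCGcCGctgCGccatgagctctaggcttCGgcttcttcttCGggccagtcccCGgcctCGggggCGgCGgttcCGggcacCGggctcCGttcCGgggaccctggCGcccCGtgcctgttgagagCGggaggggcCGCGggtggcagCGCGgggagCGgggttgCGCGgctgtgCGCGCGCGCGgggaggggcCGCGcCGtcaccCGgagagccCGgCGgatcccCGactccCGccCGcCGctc
CpG counts were made on these windows only, and the sequences of the intergenic regions themselves were not analysed here.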

How the data were processed

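H3K27me3 was measured by ChIP-seq in 1 ChIP and 1 input library. The authors mapped the reads to mm9 with the DNAnexus mapper and called regions with QuEST against input; versions and settings are not given in the sources used here. The deposited counts are whole numbers of ChIP and input tags per region, not scaled for depth; how deeply each library was sequenced is not known from the list. The deposited ratio (tag enrichment) sets the input to at least 9.21 tags per kb, found from the values, which applied to 1552 of 2017 regions. The deposited signal height comes from the smoothed profile, and the deposited −log10 of the q-value was not used for calls.

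Rows were joined by region, and a region with no gene name in any row was taken as intergenic. Whether positions count from 0 or 1 is not stated, and distances run between region ends, to the nearest region with a gene and not to the gene. Ratios and shares have Clopper-Pearson intervals, medians exact binomial order-statistic intervals; both were checked on simulated data. Ratios are not scaled for depth and say nothing about absolute enrichment. Gene order, microRNA and promoter sequences came from RefSeq (GRCm38.p6), in which 912 of 922 list genes were matched. Named were the 10 extreme regions by ChIP tags, lower bound of the ratio, length and height (27 in all), the 8 leading runs and windows and the 15 genes nearest to the most intergenic regions; others were chosen after their values were seen. The members and lists were chosen with earlier results of these data known. Alternatives were heights of at least 9 or 10, an input limit of 2 times the floor, merging within 3000 bp, gaps of 3000 or 50000 bp, near distances of 50000 or 250000 bp, no X chromosome and, chosen after seeing the data, no run that names Cwc22. Scripts ran under Python 3.11.15 with scipy 1.17.1, pandas 2.3.3, numpy 2.4.6 and, for the plots, matplotlib 3.10.9.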

Additional observations from a re-analysis of the deposited data

How the results depend on the processing

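Of 82 recomputed values, 35 moved by less than their interval, or for the number of regions by less than 1.5 times, and 47 by more. At a height of at least 9, 263 intergenic regions were left. Their medians were 1234 bp, 70 ChIP tags, 8 input tags, an enrichment of 5.93 and a height of 9.69, and their pooled ratio was 6.13. Regions with a gene had 1272 bp, 71 and 9 tags, 5.92, 9.64 and a pooled ratio of 7.58. At a height of at least 10, 100 were left, with 1238 bp, 80 and 10 tags, 6.03, 10.7 and 4.85, against 1412 bp, 82 and 10 tags, 6.03, 10.7 and 6.96. Shares in runs were then 50.6% and 37%, shares within 100 kb of a region with a gene 45.6% and 25%, and median distances 146715 and 2075550 bp. At both heights the intergenic regions included all 13 of the run beside Cwc22, with their ratio of 2.58. The pooled ratios at these heights were not recomputed without that run. With regions within 3000 bp merged, the intergenic regions had medians of 954 bp, 51 ChIP tags, an enrichment of 5.63 and a height of 8.72. Regions with a gene, among which any merged stretch that names a gene was counted, had 1281 bp, 68 ChIP tags, 5.44 and 8.75. The share in runs was then 37.4%, the share within 100 kb 47.8% and the median distance 110406 bp. With input below 2 times the floor, the pooled ratios were 8.38 and 7.98, and without the run that names Cwc22 the intergenic ratio was 8.27, which in both cases put the intergenic regions above those with a gene. Gaps of 3000 and 50000 bp gave shares in runs of 40.7% and 78.6%, near distances of 50000 and 250000 bp shares of 45.7% and 68.8%, and the share nearest to a transcription factor was 54.4% within 100 kb.

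With 1 library of each kind, the spread between animals or cultures is unknown. A median of 53 ChIP and 6 input tags per intergenic region limits single-region ratios, and weaker stretches below the caller's height of 8 were not listed. Base composition was not run, because no genome of build mm9 was used here. Leaving out a replicate was not possible with 1 library a group. No paired analysis was possible because each group has 1 library and the result comes from no test.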
